A study of Mus musculus with 60 samples.

Results

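Csmd3, Upk1b, Mlph, Il7r and Fmo2 are 5 genes whose transcripts appear late in the postnatal development of microglia, the macrophages that live within the brain. They were taken by name from the 22869 gene symbols of a microglial RNA-seq series. The members were chosen by their measured levels, for a rise at postnatal day 14 (P14) and at P60 in saline-treated animals. Their levels over these ages are therefore described without a test. All 60 libraries came from microglia of the C57BL/6N strain. By title the E18 groups (embryonic day 18) held 3 female and 4 male libraries, the P4 groups 4 of each sex and the P14 groups 10 of each sex, all untreated. At P60 there were 7 female and 5 male libraries after saline, and 6 female and 7 male libraries after lipopolysaccharide (LPS), an outer membrane molecule of Gram-negative bacteria sensed through TLR4. The labels give neither the dose, route and timing of LPS nor how the microglia were isolated, and they do not say whether replicates were separate animals. P-values then measure the spread between these libraries.

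Microglia seed the brain in the embryo and take on their adult expression program over the weeks after birth. P2ry12, a purinergic receptor that senses ADP released by injured cells, is a standard mark of mature and unstimulated microglia. Ttr, the transthyretin gene, is made in the brain by the choroid plexus, the epithelium that secretes cerebrospinal fluid. The 5 late genes belong to unrelated families. Csmd3 encodes a very large membrane protein with CUB and Sushi domains, domain types also found in complement regulators. Upk1b encodes a tetraspanin best known from the plaques of the bladder epithelium. Mlph encodes melanophilin, the adaptor that links the small GTPase Rab27a on melanosomes to the motor myosin Va. Il7r encodes the alpha chain of the interleukin-7 receptor, best known in lymphocytes. Fmo2 encodes a flavin-containing monooxygenase, which oxidizes nitrogen and sulfur in foreign compounds.

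In the RefSeq annotation of GRCm38.p6 the gene Csmd3 spans chr15:47580638-48792558, Upk1b chr16:38773182-38800203, Mlph chr1:90915024-90951142, Il7r chr15:9506159-9529941 and Fmo2 chr1:162874317-162898758. The set of promoter windows used here held none for Csmd3 or Upk1b. Windows of 250 bases from this set were available for 3 of the 5 genes. They are shown because Mlph and Il7r rose with P2ry12 between libraries, a relation that missed the threshold for both with the label date as a block, and Fmo2 did not pass in either fit. Each is given in lower case, 5′ to 3′ on the gene's strand, up to the base before the gene. Mlph is chr1:90914850-90915023 on the plus strand, Il7r chr15:9529942-9530126 on the minus strand and Fmo2 chr1:162898759-162899008 on the minus strand. The annotated starts used for Mlph and Il7r lie 76 and 65 bases further in.
Mlph: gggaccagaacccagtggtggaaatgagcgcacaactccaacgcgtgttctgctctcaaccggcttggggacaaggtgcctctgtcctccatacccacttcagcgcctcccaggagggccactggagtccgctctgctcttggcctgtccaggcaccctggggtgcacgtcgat
Il7r: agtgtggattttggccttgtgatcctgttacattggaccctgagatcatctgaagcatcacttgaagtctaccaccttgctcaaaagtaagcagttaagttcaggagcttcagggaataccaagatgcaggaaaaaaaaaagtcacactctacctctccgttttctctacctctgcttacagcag
Fmo2: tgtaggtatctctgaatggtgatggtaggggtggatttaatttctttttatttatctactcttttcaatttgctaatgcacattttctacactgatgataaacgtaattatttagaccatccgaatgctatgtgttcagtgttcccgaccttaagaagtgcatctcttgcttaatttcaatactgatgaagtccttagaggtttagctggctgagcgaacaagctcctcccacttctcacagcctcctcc
These stretches of 174, 185 and 250 bases held 62.6%, 43.8% and 39.6% G and C, with 8, 1 and 4 CG dinucleotides. The median over 32851 RefSeq windows of 250 bases was 52.4% G and C. On either strand no match was found in them to GAGGAA (core letters bound by PU.1 and other ETS factors), TGACTCA (AP-1) or TATAAA, which says only that these letters are absent there. Of all windows 23.3%, 4.46% and 12.4% hold them. A further Fmo2 window, for a start site 265 bases inside the gene, held GAGGAA once, at position -147 from that start.

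Total counts over the genes ran from 802016 to 3497454 per library. The LPS libraries were shallower, with a median of 970080 against 2092799 in the saline libraries. For 10 libraries the sex in the title and in the characteristics disagreed, and the title was kept. By Xist and Y-linked transcripts 59 of 60 libraries matched their title, and M_E18 replicate 4 went against it. Among saline libraries 2 stood apart in Ttr. F_P60_Sal replicate 5 had 162 CPM of Ttr (counts per 1000000 of the library total) and replicate 6 had 119850. All 14 mature microglia markers were detected at P60, with Tmem119, a microglial membrane protein, at 1398 ± 506 CPM (SD, n = 12) after saline. The summed choroid plexus and ependymal markers ran from 291 to 160080 CPM in the same libraries. In these bulk samples fewer cells of a type and less RNA per cell cannot be told apart.

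Csmd3 was low before birth and went through its largest step after P14. The lowest, median and highest of 7 E18 libraries were 0.730, 2.54 and 5.96 CPM, and those of 8 P4 libraries 2.60, 6.12 and 9.32 CPM. At P14 they were 12.3, 22.1 and 44.8 CPM over 20 libraries. After saline at P60 they were 116, 208 and 310 CPM over 12 libraries. No P14 library overlapped the P4 range and no saline library overlapped the P14 range. On average P14 held 11.5% of the P60 saline level. The fitted log2 change was 2.29 ± 0.25 (SE) from P4 to P14 and 3.02 ± 0.17 from P14 to P60 saline.

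Upk1b came closest to a change from no signal. It had no read in 5 of 7 E18 libraries, where 3 counts would correspond to 1.09 to 2.19 CPM, so that a low level there was not detectable. All 8 P4 libraries held 1 to 3 reads, with a lowest, median and highest value of 0.390, 0.524 and 1.07 CPM. At P14 these values were 11.3, 17.7 and 31.4 CPM, and at P60 after saline 53.98, 85.5 and 139 CPM. The ranges of P4, P14 and P60 saline did not overlap. The log2 change was 5.10 ± 0.31 from P4 to P14 and 2.06 ± 0.15 from P14 to P60 saline. Unlike that of Csmd3, its larger step came before P14, on counts of 1 to 3 reads per P4 library.

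Mlph followed the same order with more spread. Its E18 values were 0, 0.513 and 2.19 CPM (lowest, median, highest) and its P4 values 0.858, 2.08 and 5.37 CPM. At P14 they were 13.3, 33.6 and 60.6 CPM, above all P4 libraries. At P60 after saline they were 22.4, 103 and 181 CPM. The value of 22.4 CPM came from F_P60_Sal replicate 6, the library with most Ttr, and it was the only saline library inside the P14 range. The log2 change was 3.90 ± 0.37 from P4 to P14 and 1.78 ± 0.22 from P14 to P60 saline.

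Il7r was higher at P14 than at P4 in all but 1 library. The lowest, median and highest levels were 0, 1.79 and 2.61 CPM at E18 and 0, 0.927 and 2.12 CPM at P4. They were 2.01, 11.8 and 24.5 CPM at P14, and 20.7, 34.6 and 70.6 CPM at P60 after saline. Of 12 saline libraries, 10 lay above all P14 libraries. P14 already held 32.4% of the P60 saline mean, the highest share of the 5 genes. The log2 change was 3.76 ± 0.45 from P4 to P14 and 1.5035 ± 0.26 from P14 to P60 saline.

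Fmo2 was near the detection limit until P14 and higher at P60. Its lowest, median and highest levels were 0, 0.429 and 1.09 CPM at E18 and 0, 0.679 and 2.73 CPM at P4. It had no read in 9 of 20 P14 libraries, where 3 counts correspond to 0.992 to 3.43 CPM. The whole series held 362 Fmo2 reads. The P14 values were 0, 0.402 and 4.09 CPM (lowest, median, highest), and the P60 saline values 2.05, 8.03 and 20.2 CPM. Of 12 saline libraries, 10 lay above all P14 libraries. The log2 change was -0.07 ± 0.58 from P4 to P14 and 3.90 ± 0.41 from P14 to P60 saline. P14 held 6.01% of the saline mean.

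**Figure D1:**
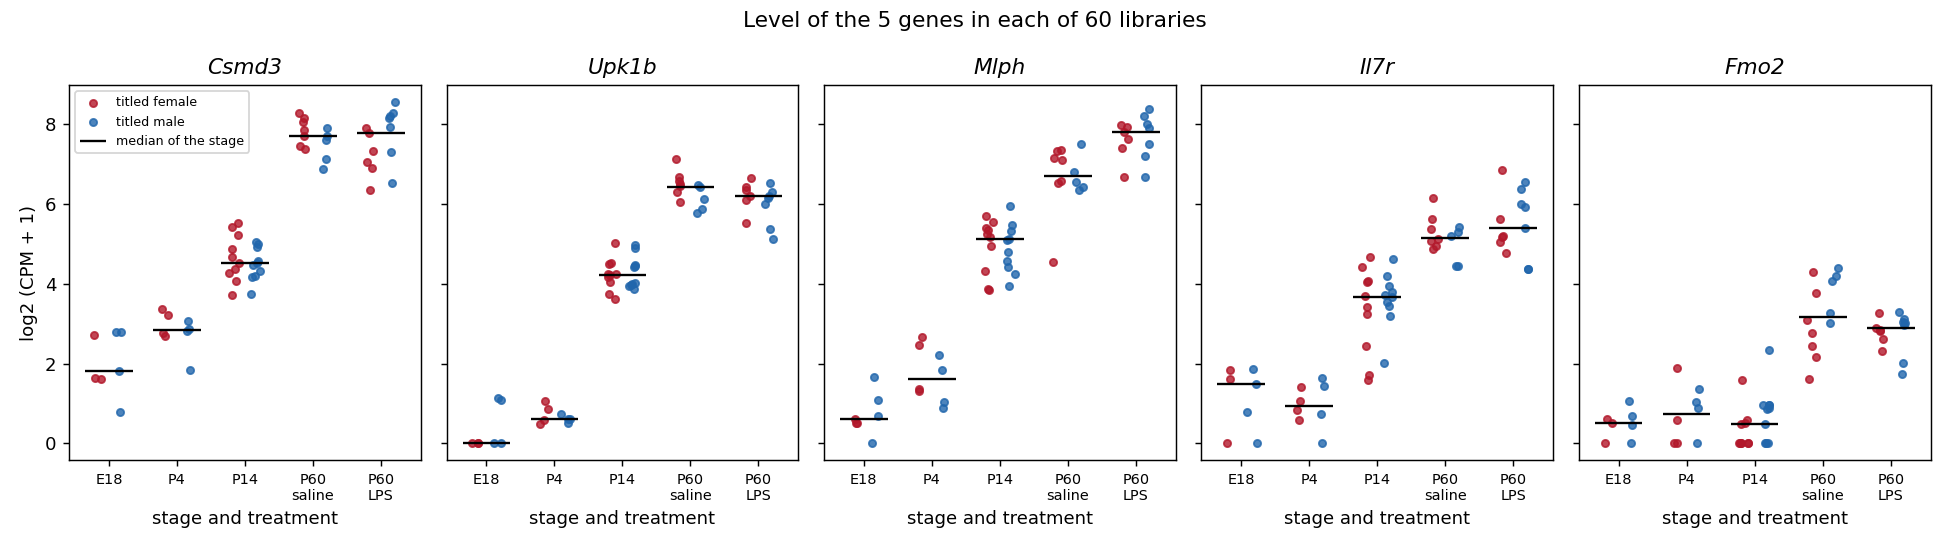
Level of the 5 genes as log2 of CPM plus 1 (vertical axis) in each of 60 libraries by stage and treatment (horizontal axis), with red points for libraries titled female, blue for male and a black line at the median. Csmd3, Upk1b and Mlph are separated from P4 at P14, while Fmo2 is near 0 until P60.

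P2ry12 itself was nearer to its adult level at P14 than any of the 5. Its mean was 233 ± 109 CPM (SD, n = 7) at E18, 1206 ± 326 (n = 8) at P4, 3898 ± 742 (n = 20) at P14 and 5266 ± 1310 (n = 12) at P60 after saline. P14 thus held 74.0% of the saline mean. Its change from P14 to P60 saline was 0.36 ± 0.15, against 1.5035 to 3.90 for the 5 genes. Among all 13853 genes 44.1% were called in this step (edgeR quasi-likelihood test, Benjamini-Hochberg adjustment at 0.05), 18.5% higher and 25.7% lower. From P4 to P14 41.5% were called, 20.6% higher and 20.8% lower. The choice of members used these steps, and nothing is read from the members against these shares or against P2ry12. Leaving out the E18 library that went against its title, the P14 to P60 changes were 1.57 to 3.96.

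Per kilobase of transcript the order of the genes changed. Lengths were those of the GENCODE transcripts matched to each gene's RefSeq transcript, from 1894 bases for Upk1b to 13022 for Csmd3. The mean level after saline was 44.3 ± 12.02 CPM per kb (SD, n = 12) for Upk1b, 25.1 ± 9.88 for Mlph, 16.2 ± 4.49 for Csmd3, 10.4 ± 3.79 for Il7r and 2.53 ± 1.56 for Fmo2. Upk1b and Mlph overlapped within 1 SD, as did Mlph and Csmd3, and Csmd3 and Il7r. After LPS the order was Mlph (46.8 ± 15.7, n = 13), Upk1b (36.5 ± 10.3), Csmd3 (15.998 ± 7.12), Il7r (14.6 ± 8.42) and Fmo2 (1.504 ± 0.497). There Mlph and Upk1b overlapped within 1 SD, as did Csmd3 and Il7r.

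The LPS libraries addressed what an immune stimulus does to these genes once they are expressed. Mlph was the only member that passed the test: it rose 1.97-fold, a log2 change of 0.98 ± 0.22 (SE, edgeR, adjusted p = 0.00225, 13 LPS against 12 saline libraries). The other 4 did not pass, and the changes of the members were not tested against each other. Among all 10538 genes 14.4% were called, 10.5% higher and 3.95% lower, and 1 of 5 members is close to that share. The saline libraries of this comparison are those whose high level chose the members, and no label date held both treatments, so date and treatment cannot be told apart.

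After LPS the lowest, median and highest Mlph levels were 101, 223 and 336 CPM over 13 libraries. Of these, 8 lay above all saline libraries, and 6 of 12 saline libraries lay below all LPS libraries. The change was 1.13 ± 0.33 in male-titled libraries (edgeR, adjusted p = 0.0145, where 19.5% of genes were called, 11.9% higher) and 0.82 ± 0.30 in female-titled ones (adjusted p = 0.144, with 5.06% called, 4.17% higher). The difference between the sexes was 0.31 ± 0.44 (adjusted p = 0.723). Against P14 the LPS level was 2.82 ± 0.21 higher on the log2 scale, where saline gave 1.78. Neutrophil and monocyte markers rose in the same libraries for 7 of 8 tested genes, where 10.5% of all genes rose. Their sum ran from 395 to 5607 CPM after LPS and from 33.9 to 392 CPM after saline. S100a8, an abundant neutrophil protein gene, rose by 3.29 ± 0.48 (adjusted p = 7.85e-06), and none of the 10 markers in the table was at 0 in all libraries. Their part in the Mlph change was not tested.

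For Csmd3 the mean values after LPS and saline were close, and the values by sex had opposite signs without passing the test in either. LPS libraries held 80.4, 220 and 376 CPM (lowest, median, highest), of which 2 lay above and 2 below all saline libraries. The mean change was 0.04 ± 0.19 (adjusted p = 0.921). It was -0.54 ± 0.27 in female-titled libraries (adjusted p = 0.358), with 158 ± 60.9 CPM after LPS (SD, n = 6) against 234 ± 55.7 after saline (n = 7). It was 0.62 ± 0.28 in male-titled libraries (edgeR, adjusted p = 0.118), with 251 ± 97.1 CPM (n = 7) against 179 ± 49.99 (n = 5). The sex difference of 1.15 ± 0.39 had an unadjusted p of 0.00579 and missed the threshold after adjustment (edgeR, adjusted p = 0.101), where 0.883% of all genes were called. With limma-voom and sample weights it was 1.32 with an adjusted p of 0.0164, and 1330 genes were called in place of 93.

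Upk1b did not pass the test after LPS. The LPS values were 33.98, 72.1 and 99.99 CPM (lowest, median, highest), and 3 of 13 lay below all saline libraries. The change was -0.15 ± 0.16 (edgeR, adjusted p = 0.582). It was -0.29 ± 0.22 in female-titled and -0.01 ± 0.23 in male-titled libraries.

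Il7r was higher on average but did not pass the test. The LPS values were 19.7, 40.9 and 115 CPM (lowest, median, highest), with 3 libraries above and 2 below all saline libraries. The change was 0.61 ± 0.25 (edgeR, adjusted p = 0.115), with 0.31 ± 0.35 in female-titled and 0.90 ± 0.37 in male-titled libraries. Without the LPS libraries dated 9 April it was 0.81 with an adjusted p of 0.0289, and without those dated 8 April 0.21 with an adjusted p of 0.632. Without F_P60_LPS replicate 1, the library at 115 CPM, it was 0.38 (adjusted p = 0.320). The summed lymphocyte markers (15 genes) were 14.8 to 58.6 CPM after saline and 17.7 to 42.3 CPM after LPS. Cd3d, a subunit of the T cell receptor complex, averaged 0.171 ± 0.593 CPM (SD, n = 12) after saline and 0.134 ± 0.482 (n = 13) after LPS. Others of the list differed in direction. Cd3g averaged 0.176 CPM after saline and 0.672 after LPS. At P14, after saline and after LPS, Nkg7 averaged 0.422, 2.15 and 2.57 CPM, and Cd79b 16.7, 15.7 and 10.2 CPM. Only 1 of the 15 genes was tested with LPS, and it was not called. Their part in the Il7r values was not tested.

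Fmo2 was lower on average, also without passing the test. The LPS values were 2.33, 6.42 and 8.87 CPM (lowest, median, highest), and all 13 lay within the saline range. Fmo2 passed the filter on low counts in this comparison through the saline libraries, whose high level chose it, so its change is a description. The change was -0.66 ± 0.29 (edgeR, adjusted p = 0.145), on 2 to 9 reads per LPS library. It was -0.28 ± 0.42 in female-titled and -1.03 ± 0.40 in male-titled libraries. All LPS libraries lay above the P14 median.

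**Figure D2:**
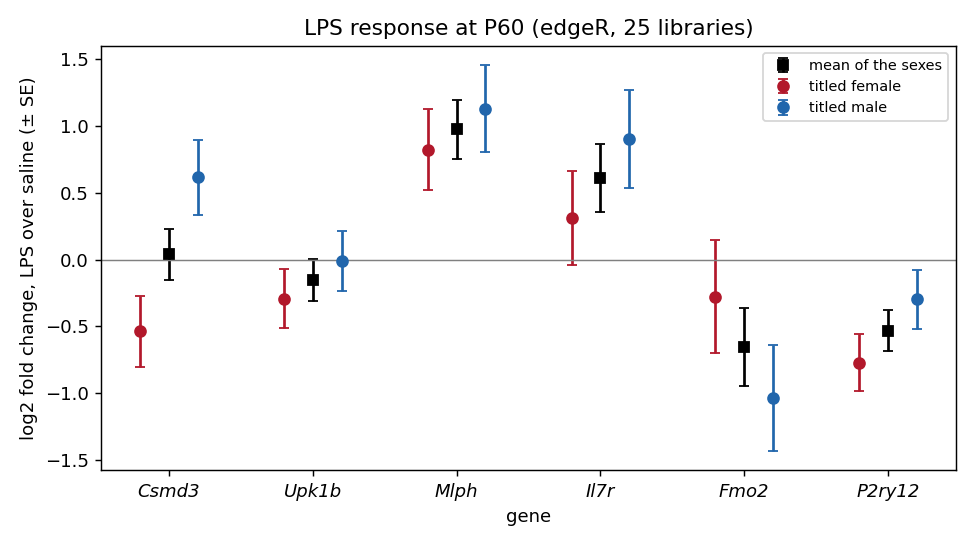
Log2 fold change of LPS over saline at P60 (vertical axis, ± SE, edgeR) for the 5 genes and P2ry12 (horizontal axis), as the mean of the sexes in black and for libraries titled female in red and male in blue. Mlph lies above 0 in both sexes, and Csmd3 at -0.54 and 0.62 lies on opposite sides.

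P2ry12 fell by 0.53 on the log2 scale after LPS (SE 0.15, adjusted p = 0.0156), from 5266 to 3308 ± 922 CPM (SD, n = 13). Of the 14 mature microglia markers 5 fell and 0 rose, where 3.95% of all genes fell and 10.5% rose. In female-titled libraries P2ry12 fell by 0.77 (SE 0.21, edgeR adjusted p = 0.0275) and 3 of the 14 markers fell. In male-titled ones P2ry12 changed by -0.30 ± 0.22 (edgeR adjusted p = 0.3525) and 0 of the markers fell. Of all genes 5.06% were called in either direction in female-titled libraries, 4.17% higher and the rest lower. In male-titled ones 19.5% were called, 11.9% higher and the rest lower. The P2ry12 difference between the sexes was 0.47 ± 0.31 (edgeR adjusted p = 0.372). With log2 P2ry12 as a covariate, a quantity that itself changed with LPS, the LPS change was 0.69 for Csmd3 (edgeR, adjusted p = 0.0145) and 1.52 for Il7r (adjusted p = 1.82e-05). For Upk1b it turned to 0.35 (adjusted p = 0.253).

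No member passed the test between the sexes at P14 or at P60 after saline, which does not show that the sexes are alike. Of all genes 0.0433% were called in each of these comparisons, which is 6 of 13853, while 655 and 1340 had an unadjusted p under 0.05. At P14 the male over female log2 differences ran from -0.25 ± 0.23 for Csmd3 to 0.87 ± 0.74 for Fmo2, all with an adjusted p of 1 (edgeR). After saline they were -0.41 ± 0.27 for Csmd3, -0.42 ± 0.24 for Upk1b, -0.08 ± 0.35 for Mlph, -0.37 ± 0.40 for Il7r and 0.83 ± 0.52 for Fmo2, with adjusted p-values of 0.584 to 0.969. The Fmo2 difference after saline passed with limma-voom (1.38, adjusted p = 0.0233), which called 180 genes there.

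Whether the genes track P2ry12 or Ttr between libraries was tested within the 6 groups of sex and condition at P14 and P60 (45 libraries). The slope of each gene on log2 CPM of P2ry12 or Ttr was fitted with the group means removed, so that the rise over ages was not used. Csmd3, Upk1b, Mlph and Il7r rose with P2ry12 and fell with Ttr, and Fmo2 did not pass with either. Fmo2 had no read in 9 of 20 P14 libraries and 2 to 9 reads per LPS library. So few reads could hardly show a relation, and none is excluded for it. With P2ry12 23.6% of 11563 genes were called, 8.84% higher and 14.8% lower, and with Ttr 40.2%, 24.6% higher and 15.6% lower. With each reference gene 4 of 5 members were called.

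Il7r had the steepest slope on P2ry12, at 1.49 ± 0.27 log2 units per log2 unit (SE, edgeR, adjusted p = 7.70e-05). Csmd3 followed at 1.05 ± 0.19 (adjusted p = 0.000101). Mlph had 0.89 ± 0.26 (adjusted p = 0.0104) and Upk1b 0.84 ± 0.17 (adjusted p = 0.000395). The Fmo2 slope was 0.17 ± 0.45 (adjusted p = 0.823). All 13 other mature microglia markers rose with P2ry12 too, with a median slope of 0.69 against -0.04 over all genes.

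Slopes on Ttr, per log2 unit of Ttr, were -0.22 ± 0.06 for Mlph (edgeR, adjusted p = 0.00254), -0.17 ± 0.07 for Il7r (adjusted p = 0.0421), -0.15 ± 0.03 for Upk1b (adjusted p = 0.000564) and -0.14 ± 0.05 for Csmd3 (adjusted p = 0.0147). Fmo2 had -0.04 ± 0.09 (adjusted p = 0.784). P2ry12 itself fell with Ttr, at -0.08 ± 0.03 (adjusted p = 0.0346). So did 13 of 14 mature microglia markers, while 9 of 10 other choroid plexus and ependymal markers rose with Ttr.

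Label dates moved with these slopes. With the date as a block, Csmd3 (0.72, edgeR adjusted p = 0.0450) and Upk1b (1.11) still tracked P2ry12. Mlph at 0.29 (adjusted p = 0.660) and Il7r at 0.98 (adjusted p = 0.114) no longer passed. On Ttr only Upk1b still passed with the block, and Csmd3, Mlph and Il7r had -0.09, -0.10 and -0.09. At P14 the 6 libraries of 14 March held the most P2ry12 (4720 ± 490 CPM), Mlph (45.2 ± 9.83) and Il7r (18.2 ± 5.38). The 8 of 28 February held the least, at 3483 ± 507, 24.4 ± 11.9 and 7.33 ± 5.41 CPM. Their mean Ttr ran the other way, at 10417 CPM on 14 March and 30918 CPM on 28 February.

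With P2ry12 and Ttr together in a single fit, Csmd3 (0.93, edgeR adjusted p = 0.00169), Upk1b (0.64) and Il7r (1.40) kept their P2ry12 slope and Mlph at 0.55 did not pass (adjusted p = 0.202). On Ttr, Upk1b at -0.10 and Mlph at -0.16 kept theirs, and Csmd3 at -0.06 and Il7r at -0.04 did not pass. Without F_P60_Sal replicate 5 alone, the library of least Ttr, the Ttr slopes were -0.23 for Csmd3, -0.23 for Upk1b and -0.37 for Mlph, all still called. Leaving out the saline libraries of lowest and highest Ttr together steepened the Ttr slopes to -0.25 for Csmd3, -0.30 for Upk1b and -0.32 for Mlph. That of Il7r became -0.24 and missed the threshold (adjusted p = 0.0839). It also missed it without F_P14 replicate 5, F_P60_LPS replicates 1 or 2, F_P60_Sal replicate 5, M_P14 replicate 5 or M_P60_Sal replicate 2, each left out alone (adjusted p up to 0.0875).

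**Figure D3:**
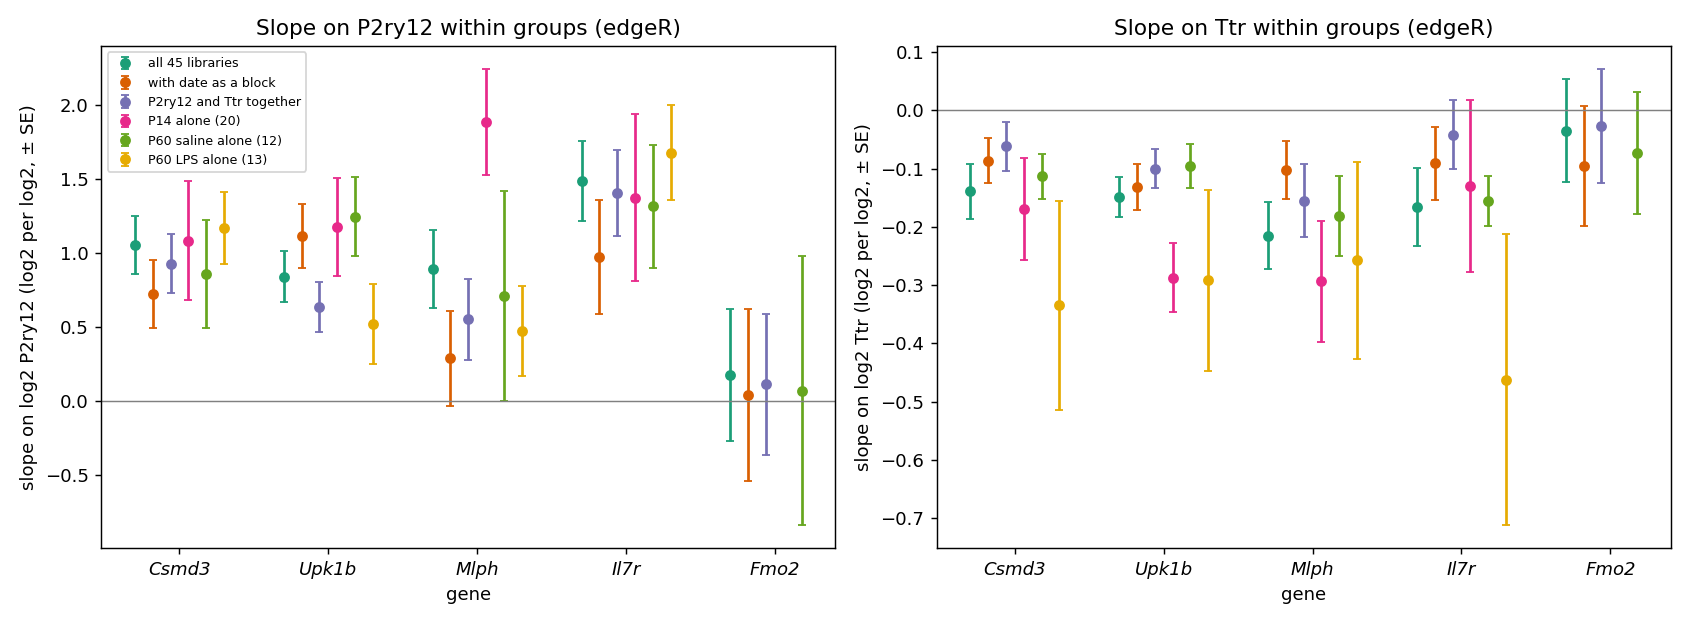
Slope of each gene (horizontal axis) on log2 P2ry12 (left) and log2 Ttr (right), ± SE, within groups, for all 45 libraries, with the date as a block, with both genes in a single fit and for each condition alone. Csmd3, Upk1b, Mlph and Il7r lie above 0 on the left and below 0 on the right in each fit shown. Fmo2 scatters about 0 and has no point at P14 alone or after LPS alone, where its counts were too low to test.

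The relations were also computed within single conditions, for the 5 members only, so no share over all genes stands beside the count that passed. In the fit of 45 libraries above, 23.6% of all genes were called with P2ry12 and 40.2% with Ttr. Of 30 Pearson correlations (5 genes, 2 reference genes, 3 conditions, permutation test with Benjamini-Hochberg adjustment over the 30), 7 passed. With P2ry12 these were Upk1b at P14 (r = 0.61, p = 0.00416, adjusted 0.0208, permutation, n = 20), Mlph at P14 (r = 0.69, p = 0.00068, adjusted 0.0068, permutation), Upk1b after saline (r = 0.92, p = 3e-05, adjusted 0.0009, permutation, n = 12) and Il7r after LPS (r = 0.80, p = 0.00108, adjusted 0.0081, permutation, n = 13). Spearman's rho was 0.62 (p = 0.00372), 0.64 (p = 0.00311), 0.92 (p = 9e-05) and 0.75 (p = 0.00496, all permutation). Without the 2 libraries farthest from the median of P2ry12, r was 0.53, 0.52, 0.92 and 0.64.

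With Ttr the 3 that passed were Upk1b at P14 (r = -0.71, p = 0.00041, adjusted 0.00615, permutation), Csmd3 after saline (r = -0.70, p = 0.00636, adjusted 0.0273, permutation) and Il7r after saline (r = -0.78, p = 0.00261, adjusted 0.0157, permutation). Spearman's rho was -0.75 (p = 0.00023), -0.94 (the smallest p these resamples can give, 1e-05) and -0.67 (p = 0.0200, all permutation). Adjusted over the 30, rho did not pass for Il7r after saline (adjusted permutation p = 0.0668). Mlph with Ttr passed by rho alone, after saline (rho = -0.89, adjusted permutation p = 0.00203) and at P14 (rho = -0.60, adjusted permutation p = 0.0237). Without the 2 libraries farthest from the median of Ttr, r was -0.70, -0.89 and -0.67. Mlph after saline did not correlate with P2ry12 (r = -0.05, p = 0.870, rho = 0.38, p = 0.228, permutation), and r was 0.75 without the 2 libraries farthest from the median, 1 of which was F_P60_Sal replicate 6. With all 12 libraries centred on their label date it was -0.62.

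Over all 5 genes, 13 of 15 relations with P2ry12 were positive and 14 of 15 with Ttr negative. Without Fmo2, left out for its low counts, 11 of 12 were positive and 12 of 12 negative. The genes share libraries, so these signs are not independent, and signs were not counted over all genes. Within label dates of at least 6 libraries, again without Fmo2, 12 of 16 were positive with P2ry12 and 10 of 16 negative with Ttr. Upk1b and Ttr gave r = -0.88 (exact p = 0.0792) among the 6 libraries of 24 February, -0.81 (exact p = 0.0179) among the 8 of 28 February and 0.15 (exact p = 0.747) among the 6 of 14 March. After saline the 6 libraries of 31 March gave -0.79 (exact p = 0.0028) for Csmd3 and -0.87 (exact p = 0.0264) for Il7r with Ttr, and 0.89 (exact p = 0.0181) for Upk1b with P2ry12. Spearman's rho there was -0.94 (exact p = 0.0167), -0.71 (exact p = 0.136) and 0.66 (exact p = 0.175). These 6 include F_P60_Sal replicate 5, at a log2 CPM of Ttr of 7.35, with the nearest library at 13.49. For P2ry12 at P14 the 3 dates gave 0.66, 0.66 and -0.61 for Upk1b, and 0.14, 0.56 and 0.41 for Mlph. Every LPS date held under 6 libraries, so no value within dates is given there. The relations of Upk1b at P14 did not hold on 14 March.

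**Figure D4:**
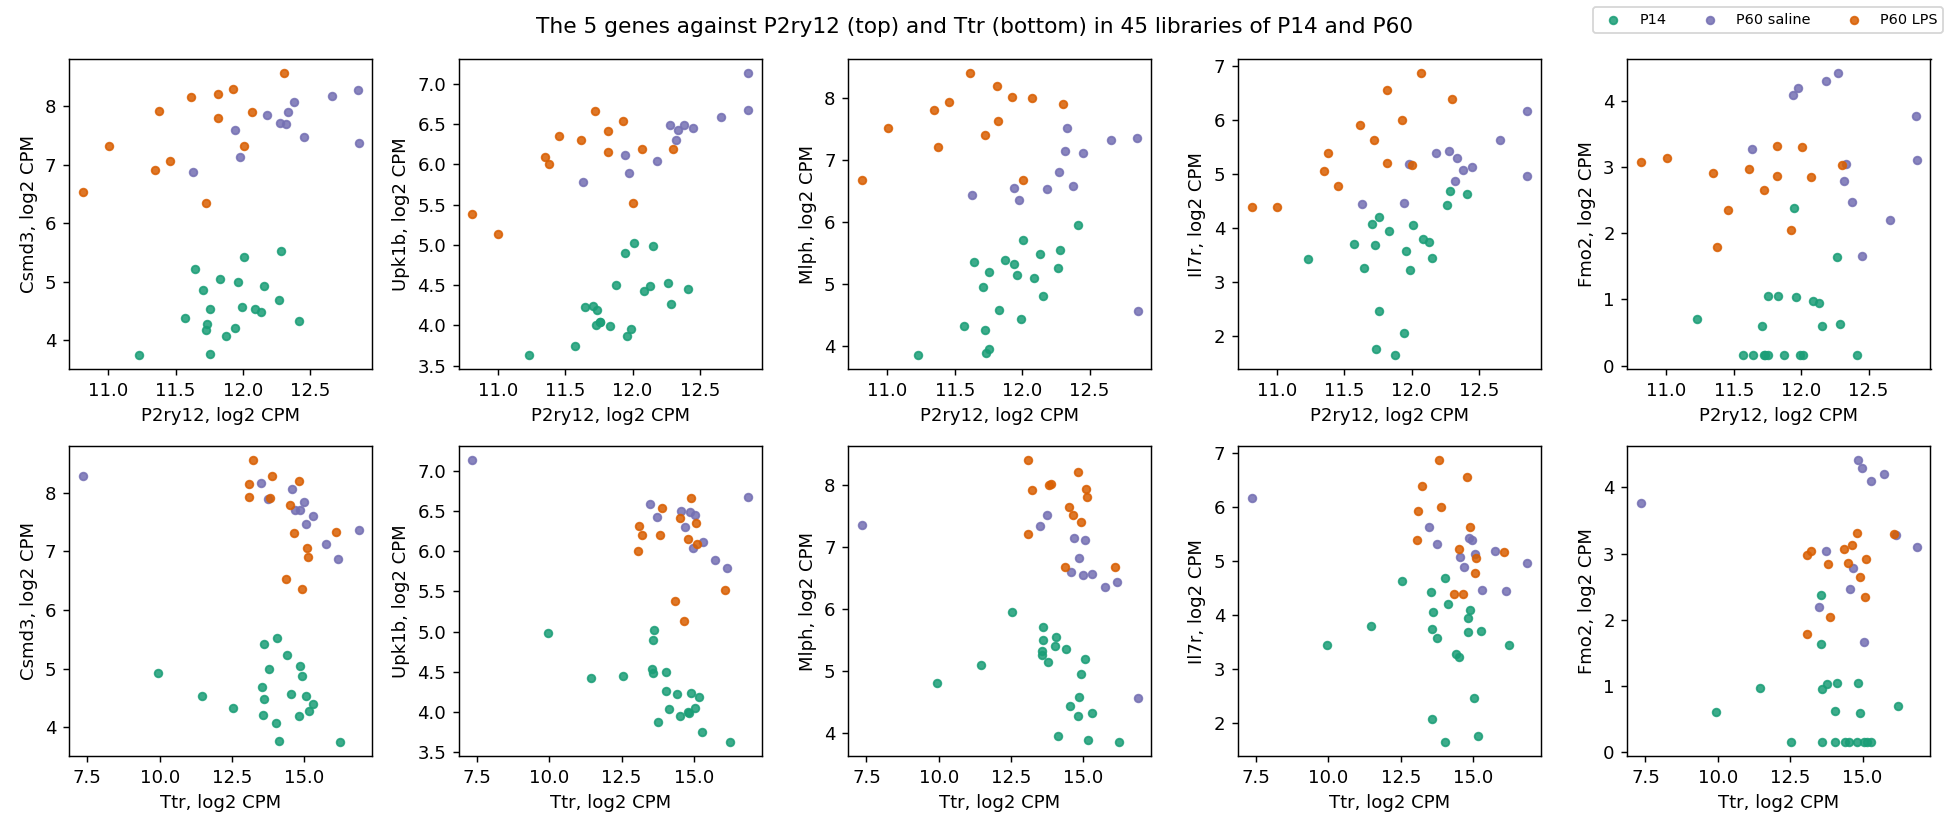
Level of each of the 5 genes (vertical axes, log2 CPM) against P2ry12 (top row) and Ttr (bottom row, both log2 CPM) in 45 libraries at P14 (green), P60 saline (purple) and P60 LPS (orange), 1 point per library. The 1 saline library at the far left of the Ttr panels is F_P60_Sal replicate 5, and the purple point low in the Mlph panels is replicate 6.

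Partners of the members' proteins were taken from lists. For Mlph, 9 of 13 other genes of Rab27 and myosin V transport were tested over ages. From P14 to P60 saline 6 of them rose and 0 fell, where 18.5% of all genes rose. The median change was 1.04, and -0.06 over all genes. In the same step 6 of 11 choroid plexus and ependymal markers rose and 1 fell, with a median of 1.18. Their part in the list's change was not tested. Of the transport genes, Myrip, an adaptor of Rab27a and myosin VIIa, rose by 1.303 ± 0.22 (edgeR, adjusted p = 7.07e-06). The unconventional myosin Myo5c rose by 1.72 ± 0.34 (adjusted p = 7.14e-05). With LPS, where 10.5% of all genes rose, 1 of 7 tested rose, Rab27a, by 0.72 ± 0.19 (edgeR, adjusted p = 0.00783). The values for Myrip and Myo5a, the motor partner of melanophilin, were -0.63 ± 0.24 (adjusted p = 0.0770) and -0.11 ± 0.15 (adjusted p = 0.687). Between libraries 0 of 7 rose and 3 fell with P2ry12, where 8.84% of all genes rose and 14.8% fell. With Ttr 4 rose and 1 fell, where 24.6% rose and 15.6% fell.

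For Il7r, 9 of 12 other genes of IL-7 and TSLP signalling were tested. From P14 to P60 saline 0 rose, 4 fell and 5 were not called, where 25.7% of all genes fell. With LPS 6 rose, 0 fell and 3 were not called, where 10.5% of all genes rose. Il2rg, the common gamma chain that completes the receptor, fell by 0.98 on the log2 scale (SE 0.18, edgeR adjusted p = 1.92e-05) from P14 to P60 and rose by 2.21 ± 0.22 with LPS (adjusted p = 6.98e-09). Jak3, the kinase bound to that chain, fell by 0.92 (SE 0.20, adjusted p = 0.000200) and rose by 1.19 ± 0.27 (adjusted p = 0.00208). The feedback genes Socs2 and Cish rose with LPS by 2.30 ± 0.26 (adjusted p = 1.17e-07) and 1.88 ± 0.29 (adjusted p = 1.53e-05). Between libraries 0 of 9 rose and 3 fell with P2ry12, against the same shares of all genes as above. The ligand gene Il7 averaged 0.242 ± 0.471 CPM (SD, n = 12) after saline and was too low to test.

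Relatives by family were described for 3 members. Csmd1, the other family member in the table, fell by 1.71 on the log2 scale from P4 to P14 (SE 0.42, adjusted p = 0.000954) and by 2.51 from P14 to P60 saline (SE 0.63, adjusted p = 0.00121), to 0.561 ± 1.36 CPM (SD, n = 12). None of the 4 other uroplakin genes in the table passed the filter on low counts, and their sum after saline was at most 4.99 CPM. Of 6 other flavin monooxygenases 2 were tested. Fmo1 fell by 1.00 with LPS (SE 0.26, edgeR adjusted p = 0.00735), and Fmo5 rose by 0.72 ± 0.14 from P14 to P60 saline (adjusted p = 7.09e-05). After saline Fmo5 averaged 24.3 ± 4.71 CPM (SD, n = 12), and Fmo2 10.3 ± 6.33 CPM.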

How the data were processed

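The deposited table gives whole-number counts per transcript for 60 libraries, and the libraries were made with a stranded polyA kit per the labels' protocols. CASAVA 1.8.2, the mm9 genome and edgeR are named in the submitters' processing notes. Aligner and counter: not given in the sources used here. Per symbol the row marked by the authors was used (21988 of 22869 symbols), otherwise that with most counts. CPM are counts per 1000000 over these rows.

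Members and lists were chosen with earlier results of these data known. Groups follow the titles. Ages were fitted on 47 libraries, LPS on 25 and tracking on 45, with edgeR 4.0.16 (R 4.3.3): default filter, TMM, robust quasi-likelihood test, two-sided, Benjamini-Hochberg over all genes at 0.05. The LPS over P14 values came from a fit of all 60 libraries. Log2 CPM used a prior count of 2. Permutation tests used 100000 resamples, or all orders below 10 libraries. The label date is that in the sample description, and its meaning is not stated.

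Named genes were the members, P2ry12, Ttr, up to 3 genes per partner list by the LPS p and 2 by the P60 p, the 3 genes most like each member (1 of them is not reported here), and the marker written first in each list. Tmem119, Il7, Myo5a, Cd3g, Nkg7 and Cd79b were named after their values were seen. Scripts were tested on simulated data. DESeq2 1.42.0, limma 3.58.1, other scalings, filters, rows, blocks and left-out libraries were alternatives.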

Additional observations from a re-analysis of the deposited data

Results flagged for a closer look

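In groups of 4 to 10 libraries, 45 combinations of gene and group were checked for a highest or lowest library far from the rest, and 3 stood out, where chance gives about 1 in 20. Il7r in F_P60_LPS replicate 1 was 115.5 CPM, with the nearest of the other 5 libraries at 48.45 CPM. Without this library the LPS change of Il7r was 0.38 in place of 0.61. Fmo2 in F_P14 replicate 8 was 2.001 CPM with the next library at 0.5115 CPM, and in M_P14 replicate 6 it was 4.093 CPM with the next at 0.9585 CPM. The last of these rests on 4 reads and the other on 7.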

How the results depend on the processing

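The LPS rise of Mlph passed under all 16 alternatives, at 0.80 to 1.33, and with each of 25 libraries left out, at 0.90 to 1.15. The LPS change of Csmd3 turned to -0.0391 with total counts, -0.0068 with a replicate block and -0.29 without the LPS libraries of 8 April, and ran from -0.0381 to 0.15 with single libraries left out. With P2ry12 as a covariate it was 0.69 (called), Il7r 1.52 (called) and Upk1b 0.35. Il7r was 0.81 (called) without the LPS libraries of 9 April. Limma-voom called 2390 genes in place of 1518. For sex by LPS, Csmd3 was 1.32 (called) with limma-voom, Mlph -0.13 with Ttr and Upk1b -0.0307 with P2ry12 as a covariate. The 93 genes called there became 601 with DESeq2, 1330 with limma-voom, 0 with the sex characteristic, 255 with all 60 libraries in a single fit, 0 with Ttr and 56 with P2ry12 as a covariate, and 0, 53 and 2 without the LPS libraries of 10, 8 and 9 April. Single libraries left out gave 0 (M_P60_LPS replicate 2) to 482 (F_P60_Sal replicate 6).

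For sex at P14, Il7r (-0.01) turned to 0.0207 with DESeq2 size factors, 0.0376 with total counts, 0.0444 with DESeq2, 0.12 with limma-voom, 0.0028 with no filter, 0.013 with summed rows, 0.13 with the replicate block and 0.14 with the date block. Upk1b turned to -0.0739 with limma-voom. With single libraries left out Il7r ran from -0.15 to 0.18, Upk1b from -0.12 to 0.17 and Mlph from -0.25 to 0.0021. For sex after saline, Mlph turned to 0.13 with the date block and ran from -0.38 to 0.0348 with single libraries left out, and Fmo2 was 1.38 (called) with limma-voom. The 6 genes called became 26 with DESeq2, 180 with limma-voom, 0 with the sex characteristic and 541 with the replicate block, and 6 to 35 (without F_P60_Sal replicate 7) with single libraries left out. From P4 to P14 Fmo2 was -0.83 with the replicate block.

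Tracking of P2ry12 kept 4 members called with each of 45 libraries left out. Fmo2 then ran from -0.0637 to 0.52, and turned to -0.47 with the replicate block and -0.0084 without F_P60_Sal replicates 5 and 6. At P14 alone Il7r missed the threshold (1.38). After saline alone Csmd3 (0.86), Mlph (0.71) and Il7r (1.31) missed it, and after LPS alone Upk1b (0.52) and Mlph (0.47). Mlph also missed it with the date block (0.29), the replicate block (1.09) and both genes in a single fit (0.55), and Il7r with the date block (0.98) and the replicate block (1.06). The 2731 genes called became 4953 with limma-voom, 329 after saline and 194 after LPS alone, 909 with the date block, 437 with the replicate block and 1222 with both genes in a single fit.

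Tracking of Ttr missed the threshold for Il7r with total counts (-0.16), with limma-voom (-0.21), without F_P60_Sal replicates 5 and 6 (-0.24) and with 6 single libraries left out (range -0.22 to -0.14). It missed at P14 alone for Csmd3 (-0.17) and Il7r (-0.13), after saline alone for Csmd3 (-0.11), Upk1b (-0.10) and Mlph (-0.18), and after LPS alone for Csmd3 (-0.33), Upk1b (-0.29), Mlph (-0.26) and Il7r (-0.46). It missed with the date block for Csmd3 (-0.0866), Mlph (-0.10) and Il7r (-0.0909), with the replicate block for Csmd3 (-0.10), Upk1b (-0.12), Mlph (-0.12) and Il7r (-0.10), and with both genes in a single fit for Csmd3 (-0.062) and Il7r (-0.0419). Fmo2 turned to 0.034 with limma-voom and 0.15 without F_P60_Sal replicates 5 and 6, and ran from -0.0908 to 0.15 with single libraries left out. The 4651 genes called became 1222 after saline and 307 after LPS alone, 2178 with the date block and 1074 with the replicate block. Of the correlations, 11 passed with TMM scaling in place of 7, where Mlph with P2ry12 after saline turned to 0.0083 and Fmo2 with P2ry12 after LPS to -0.0337. Without the 2 farthest libraries they were 0.75 for Mlph and, for Fmo2 with Ttr, 0.43 after saline and -0.0502 after LPS, and -0.0735 for Upk1b with P2ry12 after LPS. The cause of these changes was not tested.

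Replicate numbers of the titles were not taken as pairs in the main fits. At P14 same-numbered libraries of both sexes share a label date. They correlated on average by 0.22 (8 of 10 over 0.1), against -0.02 for libraries of other numbers. After saline the same-numbered mean was 0.09 against -0.02, and after LPS it was -0.03 against 0.0047. No same-numbered library was the mutual best match of its number. Leaving out F_P60_Sal replicates 5 and 6, or the E18 library, was chosen after seeing the data. Depth limits Fmo2 at every age and Upk1b and Il7r before P14, where no library holds more than 7 reads.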

Other observations

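The genes whose levels were most like each member over all 60 libraries (Pearson r of log2 CPM among 13509 genes, a description in which the ages set most of the likeness) were shared in part. For Csmd3 they were Lrrc3 (0.95), Tlr3 (0.92), the receptor of double-stranded RNA, and Gcnt1 (0.92), a glycosyltransferase. For Upk1b they were the calpain Capn3 (0.97), Selplg (0.95), the P-selectin ligand, and the protease inhibitor Cst3 (0.95). For Mlph they were Arhgap22 (0.95), Capn3 (0.95) and Lrrc3 (0.94), and for Il7r Lrrc3 (0.93) and Slco4a1 (0.91). Fmo2 was less like its nearest genes, B3gnt2 (0.81), Lrba (0.80) and B3galt5 (0.80). Lrrc3 itself averaged 45.2 CPM at P14 and 199 CPM after saline.

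Among members, Upk1b and Mlph correlated by 0.96 over 60 libraries, but by 0.61 at P14 (n = 20), 0.14 after saline (n = 12) and 0.60 after LPS (n = 13). Csmd3 and Il7r gave 0.92 over all, 0.36 at P14, 0.71 after saline and 0.68 after LPS. Libraries share depth and makeup, and these values are given with no test.

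The LPS libraries differed by label date. Csmd3 averaged 258 ± 82.0 CPM in the 5 libraries of 8 April, 143 ± 74.2 in the 4 of 9 April and 212 ± 101 in the 4 of 10 April (SD). Il7r averaged 72.4 ± 35.8, 32.2 ± 14.7 and 45.2 ± 18.7 CPM, and P2ry12 4134 ± 593, 2473 ± 704 and 3111 ± 563 CPM in the same order.

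Glucocorticoid-induced genes rose with LPS for 6 of 10 members, where 10.5% of all genes rose, with Fkbp5, a chaperone of the glucocorticoid receptor, up by 2.31 ± 0.23 (edgeR, adjusted p = 1.52e-08). Endothelial markers fell for 6 of 11 genes and rose for 1, where 3.95% of all genes fell. In female-titled libraries 2 rose and 0 fell (median 0.03), where 5.06% of all genes were called, 4.17% higher. In male-titled ones 0 rose and 8 fell (median -1.12), where 19.5% of all genes were called, 11.9% higher. Of the 11 genes 2 passed the test of sex by LPS, where 0.883% of all genes were called. Cldn5, a tight junction gene, fell by 3.14 on the log2 scale (SE 0.35, adjusted p = 9.41e-08). Their part in the values of the 5 genes was not tested.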
